A study of Homo sapiens with 4 samples.

Results

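The DOK (docking protein) genes DOK1, DOK2, DOK3, DOK4, DOK5, DOK6 and DOK7 were followed in HGC-27 cells with and without knockdown of USP47. They were taken by symbol from 63568 gene identifiers, and all 7 have an entry. The family was selected on the log2 fold change of DOK5 in this comparison, the highest once genes averaging under 1 on the log2 CPM scale (counts scaled to library size) were set aside, so the change of DOK5 is given as a description without a test, while the other 6 entered by name. HGC-27 is an established human gastric carcinoma cell line. In the 4 RNA-Seq libraries, 2 came from cells infected with lentivirus carrying control (scrambled) shRNA and 2 from cells infected with lentivirus carrying USP47 shRNA, each labelled as a biological duplicate. All cells were stable, puromycin-selected lines and shared the vector, and the sources do not say whether both knockdown libraries carry the same USP47 shRNA. The series' design text also mentions a vehicle (DMSO) for control cells, but no sample label names a drug. The question was what loss of USP47, a deubiquitinase, does to cellular pathways.

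DOK proteins are adaptors without enzymatic activity. A pleckstrin homology domain holds them at the membrane, a phosphotyrosine-binding domain docks them on activated receptors, and a tail with tyrosines recruits SH2-domain proteins. DOK1 and DOK2 recruit the Ras inhibitor RasGAP and restrain Ras-ERK signaling, chiefly in blood cells, and DOK3 acts in B cells and macrophages. DOK4, DOK5 and DOK6 are a separate, largely neural branch that binds the GDNF receptor RET and neurotrophin receptors and lacks the RasGAP docking sites of DOK1. DOK7 binds and activates the kinase MuSK from inside the muscle cell at the neuromuscular junction.

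The windows from 250 bases before to 50 bases after the annotated start are shown for DOK5 and DOK1, the members with the largest changes in each direction. They come from RefSeq (GRCh38.p14, a newer build than the hg19 of the counts), are written 5′ to 3′ on the plus strand, and carry the 50 bases from the start site onward in capitals. For DOK5 the window is chr20:54475343-54475642, and the table holds 2 starts of DOK1, at chr2:74548855-74549154 and chr2:74554470-74554769.
DOK5: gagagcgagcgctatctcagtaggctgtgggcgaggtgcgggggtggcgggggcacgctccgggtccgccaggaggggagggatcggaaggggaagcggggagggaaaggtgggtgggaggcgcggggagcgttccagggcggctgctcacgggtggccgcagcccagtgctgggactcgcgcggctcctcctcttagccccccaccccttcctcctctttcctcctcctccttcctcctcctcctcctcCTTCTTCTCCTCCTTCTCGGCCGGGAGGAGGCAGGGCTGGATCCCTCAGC
DOK1 upstream start: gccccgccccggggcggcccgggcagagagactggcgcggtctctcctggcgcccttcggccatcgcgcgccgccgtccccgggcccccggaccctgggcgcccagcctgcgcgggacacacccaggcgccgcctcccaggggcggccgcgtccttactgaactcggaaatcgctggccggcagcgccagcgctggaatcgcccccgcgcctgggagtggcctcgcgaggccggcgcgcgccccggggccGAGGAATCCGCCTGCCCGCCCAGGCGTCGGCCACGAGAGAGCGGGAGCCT
DOK1 downstream start: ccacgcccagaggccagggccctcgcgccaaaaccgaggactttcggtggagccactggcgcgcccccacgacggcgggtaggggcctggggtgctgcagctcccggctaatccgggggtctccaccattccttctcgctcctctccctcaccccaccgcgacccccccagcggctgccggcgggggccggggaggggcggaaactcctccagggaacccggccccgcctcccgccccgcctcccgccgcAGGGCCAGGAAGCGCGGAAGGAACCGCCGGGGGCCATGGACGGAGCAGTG
All 3 windows are rich in G and C (70.3% for DOK5, 79.7% and 75.3% for DOK1) beside a median of 58.7% over 35116 promoter windows. Letters were searched on both strands in the 12 windows of DOK1, DOK3, DOK4, DOK5 and DOK7. The Snail E-box CAGGTG was found in 2 windows, 1 of DOK3 and 1 of DOK4, and in 20.59% of all windows. The AP-1 word TGANTCA and the GLI word TGGGTGGTC were found in none of the 12, and in 7.71% and 0.24% of all windows. Such matches describe letters, not bound sites.

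Total counts on genes lay between 15649899 and 20140273 per library. USP47 itself was at 80.0 and 66.1 CPM (counts scaled to library size after TMM normalization, which scales libraries to a common composition) in control and at 36.0 and 21.5 CPM in knockdown libraries. Its log2 fold change between groups was -1.34 ± 0.21 (± the standard error here and after every fold change, Benjamini-Hochberg adjusted p = 0.00362 by edgeR), and the libraries kept 49.3% and 29.5% of the control mean. The cells carried mesenchymal transcripts in quantity, with a summed TPM of 346 to 387 for 8 markers in control and 285 to 296 in knockdown libraries. The highest of them in control were VIM (137 and 122 TPM) and COL1A1 (133 and 126), in an order that changed between libraries. VIM was the highest in both knockdown libraries, at 103 and 110 TPM. Exons of genes on the other strand cover 24.6% of the exon bases of VIM and 35.9% of those of ACTA2. In control, VIM, COL1A1 and TWIST1 had means of 130, 129 and 72.2 TPM, and ACTA2 1.93 TPM. CDH2 had 3 counts in each control library and 10 and 3 in knockdown libraries, and was not tested. Of the 7 tested mesenchymal markers, 3 fell and 1 rose, beside 9.56% and 6.52% of all genes tested. Gastric epithelial markers were scarce. Their 14 genes summed to 4.28 and 4.29 TPM in control and to 3.00 and 4.72 in knockdown libraries. KRT18, KRT19, MUC5AC, TFF1, TFF2 and GKN1 never exceeded 3 counts. The most counted, MUC6, had 121 and 131 counts in control and 146 and 71 in knockdown libraries. CLDN4 had 42 and 77 counts against 41 and 47, and CDH1 13 and 12 against 28 and 8. Of the 7 tested, 1 fell, EPCAM (adjusted p = 0.0418), and 6 did not pass, beside 9.56% of all genes that fell. EPCAM had 12 and 11 counts in control and 3 in each knockdown library. It met the low-count filter through the control libraries alone.

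DOK5 went from nearly silent to clearly counted in the knockdown. Control libraries held 8 and 11 of its counts, and knockdown libraries 63 and 78. The exact 95% Poisson intervals, which cover counting error only, end at 15.8 and 19.7 counts in the controls and begin at 48.4 and 61.7 in the knockdown. They are of unscaled counts, and since DOK5 was chosen for its rise, their separation is not a test. After normalization the DOK5 values were 0.472 and 0.561 CPM against 3.03 and 5.43 CPM. Both knockdown libraries stood above both control libraries, and the control libraries lay closer together than the knockdown libraries. The fitted log2 fold change was 2.97 ± 0.38, a 7.85-fold difference and the measure on which DOK5 was chosen. The higher DOK5 value was in USP47 shRNA replicate 2, the library with the lower USP47 level. Without that library the log2 fold change was 2.53, and without USP47 shRNA replicate 1 it was 3.38. These are bulk samples, so more cells with the transcript and more transcript per cell cannot be told apart.

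**Figure D1:**
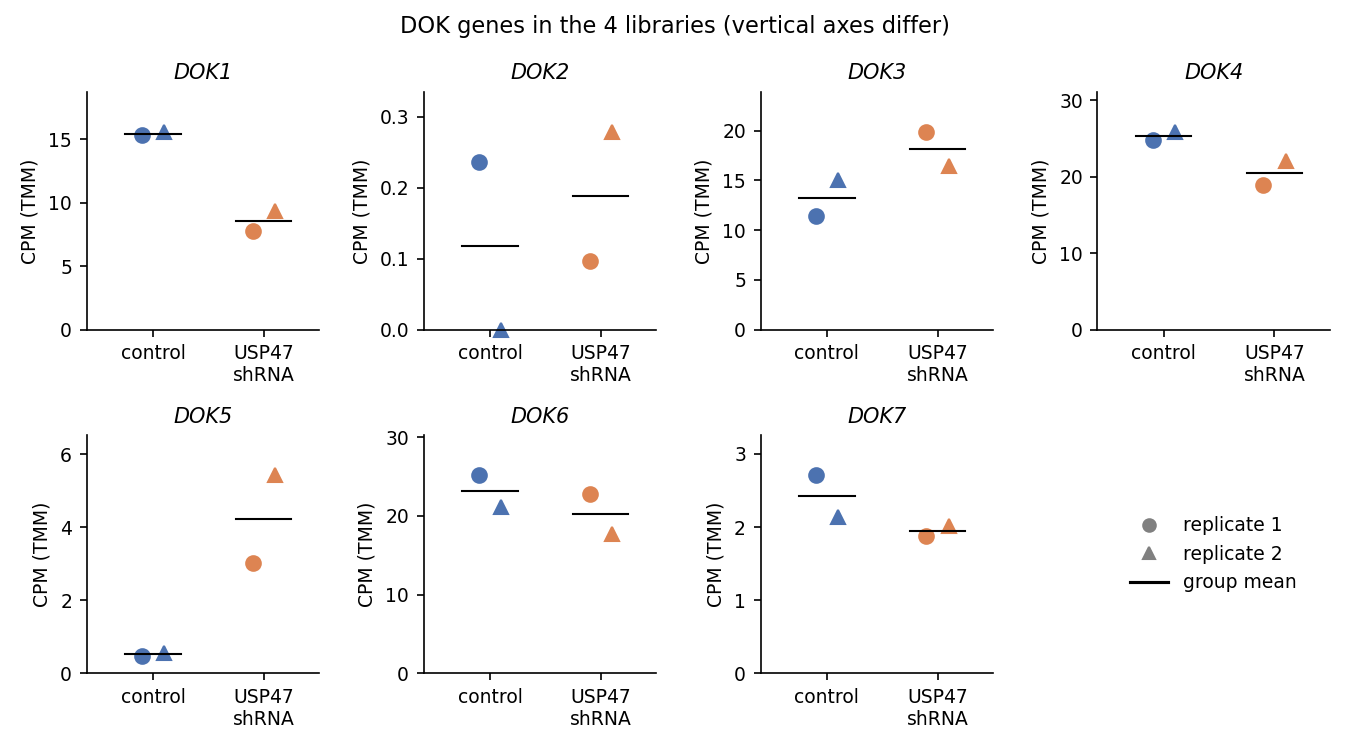
CPM after TMM normalization (vertical axes, scaled for each gene and starting at 0) of the 7 DOK genes in the 2 control shRNA and 2 USP47 shRNA libraries. Circles are replicate 1, triangles replicate 2 and lines group means (n = 2). DOK5 was at 0.472 and 0.561 CPM in control and 3.03 and 5.43 CPM in knockdown libraries, and DOK1 at 15.3 and 15.6 against 7.74 and 9.34 CPM.

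The place of DOK5 at the head of the risen genes depends on the abundance minimum. By fitted log2 fold change it ranked 13 among all 21932 genes that passed the low-count filter, and 1 among the 15791 that reached the minimum, 1 on the average log2 CPM scale. Its own average was 1.28, just inside. The 12 genes ranked above it had averages of 0.59 or less. In the full ranking it stood between LINC-ROR (3.02) and TINCR (2.96), and in the restricted one BRINP2 (2.79) came next. The DOK5 locus was free of shared sequence. Of its 2606 annotated exon bases (chromosome 20 of GRCh37, 53092132 to 53267708, plus strand) none lies under an exon of another gene, and none of its 2604 words of 50 bases occurs in the transcripts of another gene on either strand.

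DOK1, the founding RasGAP-binding member, was lower in the knockdown. Its counts were 260 and 306 in control and 161 and 134 in knockdown libraries, or 15.3 and 15.6 CPM against 7.74 and 9.34. The groups did not overlap, and the gap between them was wider than the gap within either. The log2 fold change was -0.86 ± 0.16 (adjusted p = 0.00718), a level 0.549 times that of control. Over all 11 alternative settings the adjusted p of DOK1 lay between 7.16e-08 and 0.0325. LOXL3 on the other strand covers 7.7% of the exon bases of DOK1 (chromosome 2, 74776153 to 74784678), and whether the counting used strand is not stated.

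DOK3, an adaptor of B cells and macrophages, had 11.4 and 15.0 CPM in control and 19.9 and 16.4 CPM in knockdown libraries. The knockdown values were the higher ones, yet the nearest values of the groups were close together. Its log2 fold change of 0.45 ± 0.18 did not pass the threshold (adjusted p = 0.104). Over the fits that each left out 1 library, the DOK3 value lay between 0.27 and 0.66. DOK2, the partner of DOK1 in blood cells, received 4 and 0 counts in control and 2 and 4 in knockdown libraries and did not pass the low-count filter. By the limit of 3 counts taken for a count of 0, the second control library allows up to 0.153 CPM, and the exact Poisson interval of that 0, at 95% on both sides together, ends at 3.69 counts. Markers of blood cells were low in all libraries. PTPRC, which marks nearly all of them, had 8 to 12 counts, CD3D, CD3E, CD79A and LCP2 never exceeded 3, and the 12 markers summed to 6.19 to 7.69 TPM in control and 3.70 to 6.21 in knockdown libraries. Their part in the DOK1 result was not tested.

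Within the neural branch, DOK4 and DOK6 had negative log2 fold changes that did not pass. DOK4, the nearest relative of DOK5 along with DOK6, had 24.8 and 25.9 CPM in control and 18.9 and 22.1 CPM in knockdown libraries. The knockdown values were lower without overlap, but the log2 fold change of -0.31 ± 0.14 did not pass (adjusted p = 0.161). With 1 library left out at a time it lay between -0.42 and -0.19. DOK6, which binds RET and a neurotrophin receptor, had 25.2 and 21.1 CPM in control and 22.8 and 17.7 CPM in knockdown libraries, with overlapping groups and a log2 fold change of -0.18 ± 0.16 (adjusted p = 0.472). The value for DOK6 lay between -0.37 and -0.01 with 1 library left out at a time. The 11 of 12 neuronal markers with an entry summed to 10.0 to 11.9 TPM in control and 7.32 to 10.9 TPM in knockdown libraries, and STMN2 and ELAVL4 had no count in any library. SNAP25, with 21 and 19 counts in control and 6 and 2 in knockdown libraries, met the low-count filter through the control libraries alone. Of the 5 tested, SNAP25 fell (log2 fold change -2.24 ± 0.47, adjusted p = 0.0121) and 4 did not pass. Those included SYT1, with 281 to 502 counts (-0.40, adjusted p = 0.0824), and ISL1, which was at 6.72 and 8.26 CPM in control and 10.3 and 9.48 CPM in knockdown libraries (0.40, adjusted p = 0.137). The part of these markers in the DOK4, DOK5 and DOK6 values was not tested.

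DOK7, the MuSK activator, had 2.71 and 2.14 CPM in control and 1.88 and 2.02 CPM in knockdown libraries. The knockdown values were just below the control values, and the log2 fold change of -0.32 ± 0.25 (adjusted p = 0.42) did not pass here or in any of the 11 alternatives. Its counts, 29 to 46 per library, leave a wide standard error. Among the 5 tested members other than DOK5, 1 passed the threshold, the lower DOK1. Over all genes tested 16.1% passed, 6.52% as higher and 9.56% as lower. That share was 5.25% and 6.22% without Control shRNA replicate 1 and replicate 2, and 32.0% and 27.4% without USP47 shRNA replicate 1 and replicate 2. The groups did not overlap in 4 of these 5 members, DOK1, DOK3, DOK4 and DOK7, beside 61.0% of all tested genes.

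**Figure D2:**
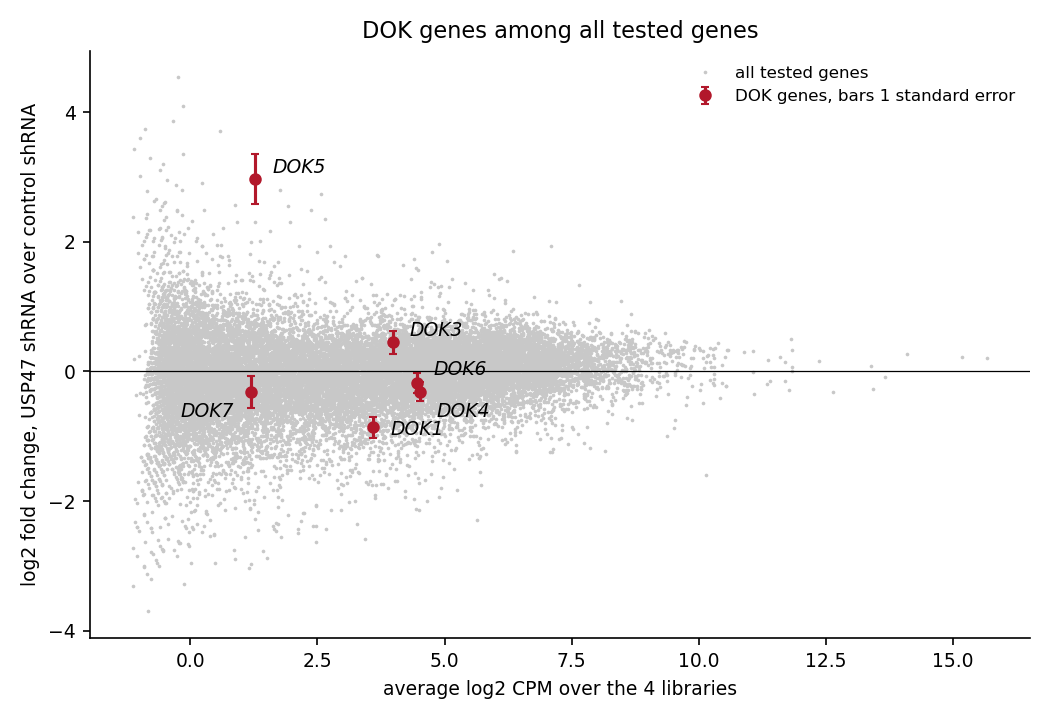
Log2 fold change of USP47 shRNA over control shRNA (vertical axis) against average log2 CPM (horizontal axis) for the 21932 tested genes in grey and the 6 tested DOK genes in red, with bars of 1 standard error. DOK5 lies at 2.97, DOK1 at -0.86, and DOK3, DOK4, DOK6 and DOK7 lie between -0.32 and 0.45. DOK2 was too rarely counted to be tested.

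Levels of different genes were compared by TPM, which divides by gene length and was computed by the authors. In control cells DOK4 (7.28 ± 0.425 TPM, SD, n = 2) and DOK1 (6.94 ± 0.539) were the most abundant and differed by less than their spread. DOK3 (3.73 ± 0.385) and DOK6 (3.39 ± 0.729) followed, in an order that changed between the libraries. DOK7 (0.83 ± 0.211), DOK5 (0.27 ± 0.00871) and DOK2 (0.0777 ± 0.11) came last. In the knockdown DOK4 (5.40 ± 0.511) and DOK3 (4.83 ± 1.62) led and could not be ordered, followed by DOK1 (3.50 ± 0.254) and DOK6 (2.78 ± 1.04), which also lay within their spread. DOK5 (1.98 ± 0.408) now stood above DOK7 (0.609 ± 0.0924) in both libraries and above DOK6 in 1 of them.

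The 7 genes together added up to 23.7 and 21.4 TPM in control and to 21.4 and 17.0 TPM in knockdown libraries, while the makeup of that sum differed. DOK5 made 1.11% and 1.29% of that sum in control and 7.90% and 13.3% in knockdown libraries. The share of DOK1 was 30.9% and 30.7% in control and 17.2% and 19.5% in knockdown libraries, and that of DOK3 was 14.6% and 18.7% against 28.0% and 21.6%. For DOK4 the share was 32.0% and 32.7% against 27.0% and 29.6%. DOK6 had overlapping shares, 16.5% and 13.5% against 16.5% and 12%.

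**Figure D3:**
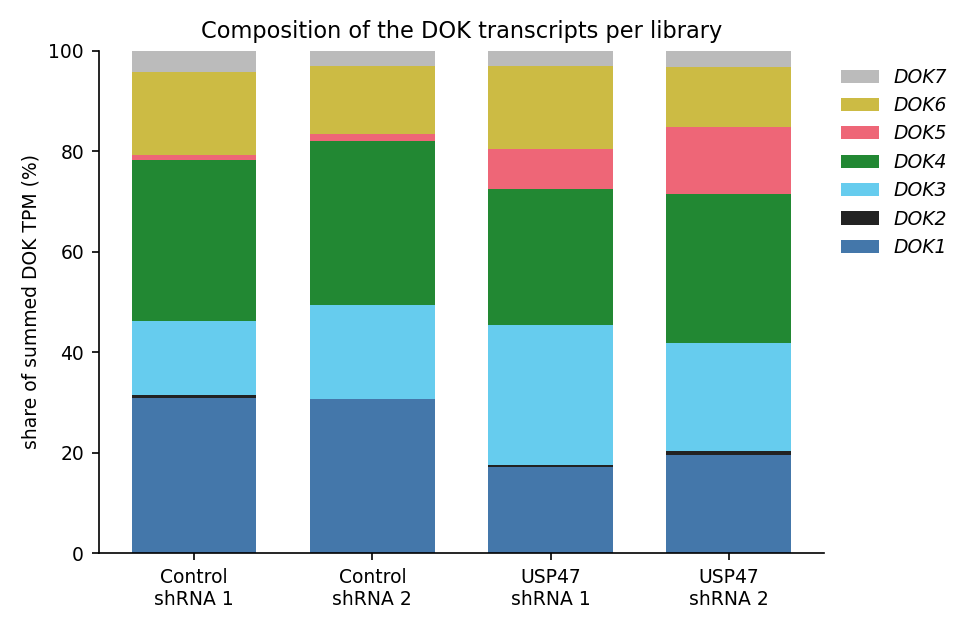
Share of the summed TPM of the 7 DOK genes (vertical axis, percent) taken by each gene in each of the 4 libraries (bars). DOK5 widened from 1.11% and 1.29% in control to 7.90% and 13.3% in knockdown libraries, while DOK1 narrowed from 30.9% and 30.7% to 17.2% and 19.5%.

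Genes around DOK5 on chromosome 20 were read to see whether a stretch of the chromosome moved with it. Of 22 annotated genes with a transcription start within 1000000 bases of DOK5, 18 have an entry. Of these, 12 never exceeded 3 counts in a library, and 6 were tested. Distances are to the start of each gene. PFDN4, a subunit of the prefoldin chaperone and the nearest tested gene at 268 kb before DOK5, was at 20.3 and 21.5 CPM in control and 28.3 and 36.4 CPM in knockdown libraries. It rose (log2 fold change 0.63 ± 0.15, adjusted p = 0.0225), a call that was lost without either control library. CYP24A1, the vitamin D-degrading enzyme at 302 kb, had 9 to 16 counts and a log2 fold change of 0.70 ± 0.45 (adjusted p = 0.312). RPL12P4, a ribosomal protein pseudogene at 423 kb after DOK5 whose reads may belong to its parent gene, had a value of 0.44 (adjusted p = 0.0913). The zinc finger gene ZNF217 at 866 kb had 64.0 and 64.1 CPM against 64.0 and 65.2 (log2 fold change 0.01 ± 0.12). The 2 unnamed long noncoding RNAs farther out, ENSG00000197670 (-1.0 ± 0.28) and ENSG00000259723 (-1.58 ± 0.40), fell. ENSG00000259723 had 23 and 21 counts in control and 7 in each knockdown library. It met the low-count filter through the control libraries alone. So 3 of 6 tested neighbours passed, 1 higher and 2 lower, beside 16.1% of all genes. Under a filter of at least 10 counts in every library, 2 of 4 tested passed, beside 17.2% of all genes. These were PFDN4, higher, and ENSG00000197670, lower. The highest log2 fold change among the 6 was the 0.70 of CYP24A1, which met the low-count filter through the knockdown libraries alone. With the DESeq2 Wald test the count was 1, PFDN4, and without Control shRNA replicate 1 it was 0 (2 at an unadjusted p under 0.05).

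The protein-coding genes whose profile over the 4 libraries was most like that of DOK5, by the distance between log2 CPM values centred on each gene's mean, were FOSB (distance 0.27), KY (0.42), USP50 (0.43), MDFI (0.43) and FOS (0.44). FOSB, an AP-1 transcription factor, had 1.36 and 1.68 CPM in control and 8.66 and 11.9 CPM in knockdown libraries. KY, a muscle protease-like protein, had 3 and 4 counts against 38 and 51, and MDFI, an inhibitor of myogenic factors, 8 and 10 against 43 and 58. USP50 had 2 counts in each control library and 18 and 19 in knockdown libraries. KY, USP50 and MDFI met the low-count filter through the knockdown libraries alone. With 4 libraries in 2 groups, a short distance says mainly that a gene rose by a similar amount with a similar gap between the knockdown libraries.

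Genes that work with DOK proteins were read from 6 lists by role. Of 12 tested ligands of receptors that dock DOK proteins, 6 fell and 6 did not pass, beside 9.56% of all genes that fell, and the list's median log2 fold change was -0.60 beside -0.008 for all genes. IGF2, a growth factor for the IGF and insulin receptors, was at 70.3 and 83.0 CPM in control and 23.8 and 28.5 CPM in knockdown libraries (log2 fold change -1.55 ± 0.15, adjusted p = 0.000471). Of the neurotrophins, NTF3 had 4.24 and 4.13 against 1.78 and 1.53 CPM (-1.32 ± 0.23, adjusted p = 0.00524), and BDNF (-0.75) and NTF4 (-0.88) also fell. ARTN (-1.17) and PSPN (-0.76), ligands of the RET co-receptor family, fell as well. IGF2 shares 43.2% of its exon bases with same-strand genes such as the read-through INS-IGF2, and BDNF 12.8% with BDNF-AS on the other strand. NTF4, NGFR and PDGFRA also share at least 10% with other genes. Without either control library 3 of the 6 calls were left, and NTF4 was not called by DESeq2 (adjusted p = 0.12).

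Receptors moved both ways. Of 14 tested, 6 fell, 2 rose and 6 did not pass, beside 9.56% of all genes that fell and 6.52% that rose, and the median log2 fold change was -0.61. RET, the receptor that DOK4, DOK5 and DOK6 bind, was scarce, with 24 and 19 counts in control and 15 and 10 in knockdown libraries (log2 fold change -0.72 ± 0.36, adjusted p = 0.192), while its co-receptor GFRA1 fell from 3.66 and 3.26 to 1.49 and 1.25 CPM (-1.31 ± 0.25, adjusted p = 0.00784). NTRK2, the BDNF receptor TrkB, was the most counted neurotrophin receptor and fell from 24.5 and 28.0 to 14.2 and 15.0 CPM (-0.85 ± 0.14, adjusted p = 0.00487). Its companion NGFR fell too (-1.34), and NTRK3 had 6 to 11 counts and was not tested. INSR, the insulin receptor, which docks DOK1, DOK4 and DOK5, rose from 35.3 and 35.5 to 46.1 and 56.7 CPM (0.54 ± 0.14, adjusted p = 0.0285). The growth factor receptors PDGFRB (-2.06), EGFR (-0.85) and PDGFRA (-0.63) fell. Without Control shRNA replicate 1, and likewise without replicate 2, 4 calls were left, all of them lower, and the rise of INSR was not among them. EGFR was not called by DESeq2 (adjusted p = 0.0585).

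**Figure D4:**
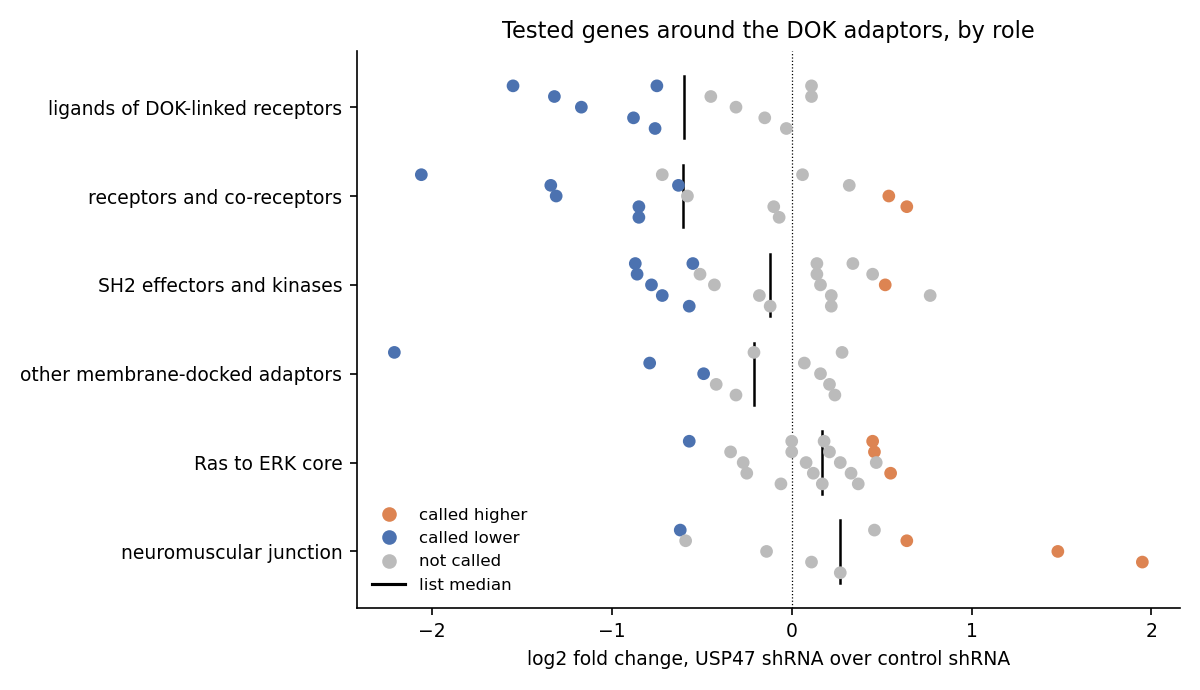
Log2 fold change of USP47 shRNA over control shRNA (horizontal axis) of each tested gene in 6 lists by role (rows), with calls at an adjusted p under 0.05 in orange (higher) and blue (lower), other genes in grey and list medians as black lines. Medians are -0.60 for ligands, -0.61 for receptors, -0.12 for SH2 effectors and kinases, -0.21 for other adaptors, 0.17 for the Ras to ERK core and 0.27 for the neuromuscular junction. LRP4 and AGRN stand in 2 lists.

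In the list of SH2-domain effectors, kinases and Ras inhibitors, 6 of 19 tested genes fell, 1 rose and 12 did not pass. Of all genes tested, 9.56% fell and 6.52% rose. RASA1, the RasGAP that DOK1 recruits, was at 49.8 and 44.1 CPM in control and 48.1 and 38.0 CPM in knockdown libraries (log2 fold change -0.12 ± 0.15, adjusted p = 0.607). The groups overlapped. CRK, an adaptor that binds phosphorylated DOK7, fell from 44.5 and 45.6 to 24.5 and 24.9 CPM (-0.87 ± 0.13, adjusted p = 0.00257). NCK1 (0.22 ± 0.15) and the Src-inhibiting kinase CSK (0.45, adjusted p = 0.0583) did not pass. NCK2 (-0.57), the kinases SRC (-0.86) and LYN (-0.72), the phosphatase PTPN11 (-0.55) and the Ras inhibitor RASA3 (-0.78) fell, and GRB2 (0.52), the adaptor that brings the Ras activator SOS to receptors, rose. INPP5D, the lipid phosphatase that DOK3 works with in blood cells, had 2 counts in every library. Without Control shRNA replicate 1 there were 2 calls (CRK and RASA3), without replicate 2 there was 1 (CRK), and without USP47 shRNA replicate 1, where 32.0% of all genes were called, there were 12. NCK2 and LYN were not called by DESeq2 (adjusted p = 0.0855 and 0.0868), nor GRB2 without the low-count filter (adjusted p = 0.0515).

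Of the other membrane-docked adaptors 3 of 11 tested fell and 8 did not pass, beside 9.56% of all genes that fell. SHC2, a neural SHC adaptor, went from 6.25 and 5.81 to 1.06 and 1.6 CPM (log2 fold change -2.21 ± 0.25, adjusted p = 0.000745), and GAB2 (-0.79) and GAB1 (-0.49) fell. GAB1 was not called by DESeq2 (adjusted p = 0.0943). Without Control shRNA replicate 1 only SHC2 was called, and without USP47 shRNA replicate 1 and replicate 2 there were 5 and 6 calls, beside 32.0% and 27.4% of all genes.

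In the core from Ras to ERK, 15 of 19 tested genes did not pass and 4 were called, beside 16.1% of all genes. BRAF, a kinase that Ras activates, rose from 55.1 and 51.2 to 78.1 and 77.4 CPM (log2 fold change 0.55 ± 0.12, adjusted p = 0.0158), ARAF (0.46) and the Rap activator RAPGEF1 (0.45) also rose, and RRAS2 (-0.57) fell. Scaled by library size alone, ARAF and RAPGEF1 were not called (adjusted p = 0.0662 and 0.0535). Without Control shRNA replicate 1 or replicate 2 the count was 0 (2 and 4 genes at an unadjusted p under 0.05), and without USP47 shRNA replicate 1 it was 10, beside 32.0% of all genes.

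At the neuromuscular junction, where DOK7 works, 3 of 9 tested genes rose, 1 fell and 5 did not pass. Among all genes tested, 6.52% rose and 9.56% fell. RAPSN, the scaffold that clusters acetylcholine receptors, had 11 and 10 counts in control and 47 and 32 in knockdown libraries (log2 fold change 1.95 ± 0.31, adjusted p = 0.00376). COLQ, the collagen tail of acetylcholinesterase, had 29 and 26 against 84 and 64 (1.48 ± 0.24, adjusted p = 0.00397). RAPSN reached the level of the low-count filter in both knockdown libraries but not in both control libraries. Tested by edgeR without that filter, RAPSN was still called (adjusted p = 0.00491). LRP4, the agrin receptor, rose from 63.3 and 58.4 to 96.1 and 94.1 CPM (0.64 ± 0.12, adjusted p = 0.00842), and the receptor subunit CHRND fell (-0.62). The ligand AGRN (0.11 ± 0.14, adjusted p = 0.646) did not pass, and MUSK, the kinase that DOK7 activates, had 2 to 5 counts per library and was not tested. RAPSN and COLQ were called in all 11 alternatives, LRP4 in 9 and CHRND in 8, and without either control library the count was 2.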

How the data were processed

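RNA-Seq of HGC-27 cells gave 4 libraries, 2 per group by the labels. The methods speak of RNA taken in triplicate and of several USP47 shRNAs, while 2 libraries per group were analysed here. Per the methods, bases under quality 20 were trimmed, STAR 2.7.5c mapped the reads to hg19, and SAMtools 1.9 discarded duplicate and low-quality reads. Without molecular identifiers, that removal can compress differences of abundant genes. The submitters' notes name featureCounts. The annotation and the strand setting are not given in the sources used here. The authors deposited raw counts per gene, and FPKM and TPM values derived from them. Counts were tested, TPM served for levels between genes, and the FPKM values the authors deposited were not used.

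Of 63568 identifiers 55665 matched a symbol. Counts were filtered with filterByExpr (21932 genes left), scaled by TMM and tested with edgeR 4.0.16 in R 4.3.3 (robust quasi-likelihood fit, both directions, Benjamini-Hochberg adjustment over all genes, threshold 0.05). "Called" and "passed" mean an adjusted p under 0.05. Standard errors were derived from each log2 fold change and its F statistic (size over root F). With n = 2 per group, the spread rests largely on that shared with other genes.

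Positions and overlaps come from GRCh37 with GENCODE release 44 lifted to it. Members and gene lists were chosen with earlier results of these data known. Named genes were USP47, the members, every called gene of the 6 role lists with fixed partners (RET, INSR, NTRK2, NTRK3, MUSK, RASA1, NCK1, CSK, CRK, and 1 that is not reported here), tested neighbours, the 5 nearest profiles, the genes next to DOK5 in rank, and markers. AGRN, INPP5D, SNAP25, SYT1 and ISL1 were added after their values were seen. Alternatives were DESeq2 1.42.0, the legacy fit, other scalings and filters, a replicate block, each library left out, a window of 500000 bases and a TPM ratio. The steps were tested on simulated data.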

Additional observations from a re-analysis of the deposited data

How the results depend on the processing

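The log2 fold change of DOK5, 2.97, lay between 2.53 and 3.38 over the 4 fits that each left out 1 library, in which a lone library is assumed to vary like the other group, and was within the replicate spread under the other alternatives. With at least 10 counts in every library DOK5 could not be fitted, since 1 control library had 8. DOK1 was called in all 11 alternatives. Of the 31 called genes in the role lists, each kept its direction in all 11, 9 kept their call in all 11, and 13 lost it only without a control library.

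Genes called over the whole table, 3527, numbered 2447 with DESeq2 and from 1233 to 7272 without 1 library. Calls among the 5 tested members other than DOK5 numbered 1 to 3 in those fits. For neighbours of DOK5 the range was 0 to 3, for receptors 4 to 9, for SH2 effectors and kinases 1 to 12, for other adaptors 1 to 6, for the Ras to ERK core 0 to 10, for ligands 3 to 7 and for the neuromuscular junction 2 to 4. DESeq2, and a window of 500000 bases, each left 1 called neighbour, PFDN4. Library size alone, and no filter, each left 2 calls in the Ras to ERK core. Library size alone made 31.5% of all calls higher, in place of 40.5%.

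With the replicate number as a block 7419 genes were called, 3 of the 5 members (DOK1, DOK3 and DOK4), 12 SH2 effectors and kinases and 9 genes of the Ras to ERK core. The other results of the block fit were within 1.5 times their count. Across genes, the correlation between control and knockdown deviations of same-numbered libraries was 0.213, a hint from 2 pairs only. The sources do not say whether a number marks a shared batch, and the libraries were treated as unpaired.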
